A study of Homo sapiens with 5 samples.

Results

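The receptor tyrosine kinases of the ERBB, MET, FGFR and AXL families were followed in C4-2B, a prostate cancer cell line derived from LNCaP that forms bone metastases. The members were chosen by name and not by a rule on their values, although earlier results of these data were known. They are EGFR, ERBB2, ERBB3, ERBB4, MET, FGFR1, FGFR2, FGFR3, FGFR4 and AXL. These are 10 of the 19775 genes with a probe set of their own on the arrays and hold 51 of the 41091 probe sets that carry 1 gene symbol. RNA was measured on 5 Affymetrix U133 Plus 2.0 arrays, 1 array per condition. The control received 0.1% DMSO, the solvent, and how long it was cultured is not stated. The label B-DIM stands for a formulated 3,3′-diindolylmethane, a compound formed from a constituent of cruciferous vegetables, given at 25 µM for 6 h or 48 h. The label isoflavone stands for G2535, a soy isoflavone mixture, given for 6 h or 72 h at a dose that counts 25 µM of its genistein. All 5 arrays came from 1 cell line grown in serum, and since each condition is a single array, no ratio can be set against replicate spread and none was tested.

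Receptor tyrosine kinases span the cell membrane. A ligand outside the cell pairs the receptors, the kinase domains inside then phosphorylate each other, and adaptor proteins docked on them start the RAS/ERK and PI3K/AKT pathways. EGFR binds growth factors of the EGF family, and ERBB4 binds neuregulins and some of the EGF family. ERBB3 binds neuregulins but has a weak kinase and signals mainly through a partner. ERBB2, which has no known ligand, is the usual partner. MET is the receptor of hepatocyte growth factor (HGF), the FGFRs bind fibroblast growth factors together with heparan sulfate, and AXL binds GAS6. In prostate cancer these receptors have been studied as routes of growth and survival signals. Genistein, the isoflavone by which the mixture is dosed, is known as an inhibitor of tyrosine kinases, and the arrays read RNA, not kinase activity.

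The promoters of MET and EGFR are shown first because the signals of these receptors were both lower on the isoflavone 6 h array and differed on the B-DIM 48 h array. Each line gives the 250 bases before the gene start on the strand of the gene, from RefSeq on GRCh38.p14, with capitals at each GC box (GGGCGG on either strand) and each core of the aryl hydrocarbon receptor element (GCGTG on either strand).
MET, chr7:116671946-116672195, plus strand: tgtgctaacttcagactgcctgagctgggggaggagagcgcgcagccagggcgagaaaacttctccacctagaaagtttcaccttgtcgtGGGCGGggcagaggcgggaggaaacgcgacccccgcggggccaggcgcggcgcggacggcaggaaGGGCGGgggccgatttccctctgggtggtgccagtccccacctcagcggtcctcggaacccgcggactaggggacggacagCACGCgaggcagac
EGFR, chr7:55018767-55019016, plus strand: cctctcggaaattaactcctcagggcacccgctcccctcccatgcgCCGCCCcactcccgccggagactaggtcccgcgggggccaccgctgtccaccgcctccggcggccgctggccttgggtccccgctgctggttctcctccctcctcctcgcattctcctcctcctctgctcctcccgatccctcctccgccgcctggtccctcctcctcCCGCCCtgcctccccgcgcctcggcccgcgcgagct
The MET window was 68.4% G or C and held 2 GC boxes and 1 GCGTG core. The EGFR window was 73.6% G or C and held 2 GC boxes and 0 GCGTG cores. Neither window held TATAAA or CACCTG, searched on both strands, and no matches overlapped. Among all 35116 promoter windows of this length, 42.6% held GGGCGG, 32.2% held GCGTG, 17.5% held CACCTG and 10.7% held TATAAA, and the median window was 58% G or C. A match of letters is a description of the window and says nothing of a factor bound there.

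The level of a receptor is the array signal, a linear intensity, of its probe set with the highest mean, and signals of different probe sets are not set against each other. What was counted as measured is marked by a floor of 97.1, which is the median signal over all probe sets and arrays. A log2 ratio with a signal under the floor was computed at the floor and is a bound, and changed means at least 2-fold apart. Signals listed without names stand in the order control, B-DIM at 6 h and at 48 h, then isoflavone at 6 h and at 72 h, and 4 ratios listed together follow the treated arrays in that order. Median signals of the arrays lay between 89.3 and 109.1, and 48.4% to 52.6% of probe sets exceeded the floor.

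The B-DIM 48 h and isoflavone 6 h arrays stood apart in genes of luminal and epithelial cells. The summed signal of 8 prostate luminal markers was 9943.6 on the control array, 9068.4 on B-DIM 6 h and 8449.5 on isoflavone 72 h. It was 1436.2 on B-DIM 48 h and 1450.4 on isoflavone 6 h, where 3 of the 8 lay above the floor against 7 or 8 elsewhere. On isoflavone 72 h the sum hid a split. There 3 of the 8 were at least 2-fold lower than the control and 1 was higher, with a median log2 ratio of -0.64. Among all genes 2.06% were lower and 4.8% higher on that array. The 8 epithelial markers summed to 9961.9, 9742.3 and 14227.4 on the control, B-DIM 6 h and isoflavone 72 h arrays and to 2039.3 and 1059.8 on B-DIM 48 h and isoflavone 6 h. KLK3, which encodes prostate-specific antigen, had signals of 5095.8 (control), 3424.2 (B-DIM 6 h), 14.6 (B-DIM 48 h), 269.5 (isoflavone 6 h) and 1544.8 (isoflavone 72 h). Of 9 markers of mesenchymal or stromal cells, 6 were above the floor on all arrays. Their summed signal was 36971.8 on the control and 42735.6 to 65373.9 on the treated arrays, and most of it came from VIM, the intermediate filament of such cells, which read 22023.9 to 50009. Immune markers summed to between 79.9 and 198.2 over 4 genes. The receptors are therefore given with and without these 2 arrays, and fewer cells of a type and less RNA per cell cannot be told apart in such bulk RNA. With 1 array per condition, a difference in labels, in cells or in treatment cannot be told apart on them either. The part of these arrays' make-up in the receptor values was not tested.

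Of the 10 receptors, 8 were above the floor on all 5 arrays in their brightest probe set, ERBB3 was above it on 4, and AXL was under it on all 5. From the highest to the lowest array, at the floor where needed, the signal of that probe set spanned under 2-fold in ERBB2, ERBB4, FGFR1, FGFR2 and FGFR3. It spanned 2.42-fold in FGFR4, 2.70-fold in EGFR, 5.20-fold in MET and at least 6.27-fold in ERBB3. This split depends on the probe set, since dimmer ones spanned up to 2.31-fold in FGFR2, 2.35-fold in ERBB4 and 2.52-fold in FGFR3. In ERBB2 and FGFR1 no probe set spanned 2-fold. The isoflavone 6 h array held the lowest signal of 6 of the 9 measured receptors. That array also had the lowest median signal of all probe sets (89.3) and the smallest share above the floor (48.4%). How many of all genes were lowest on it was not counted. Among probe sets of these genes, 21 of 51 were above the floor on all 5 arrays, 15 on some and 15 on none.

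**Figure D1:**
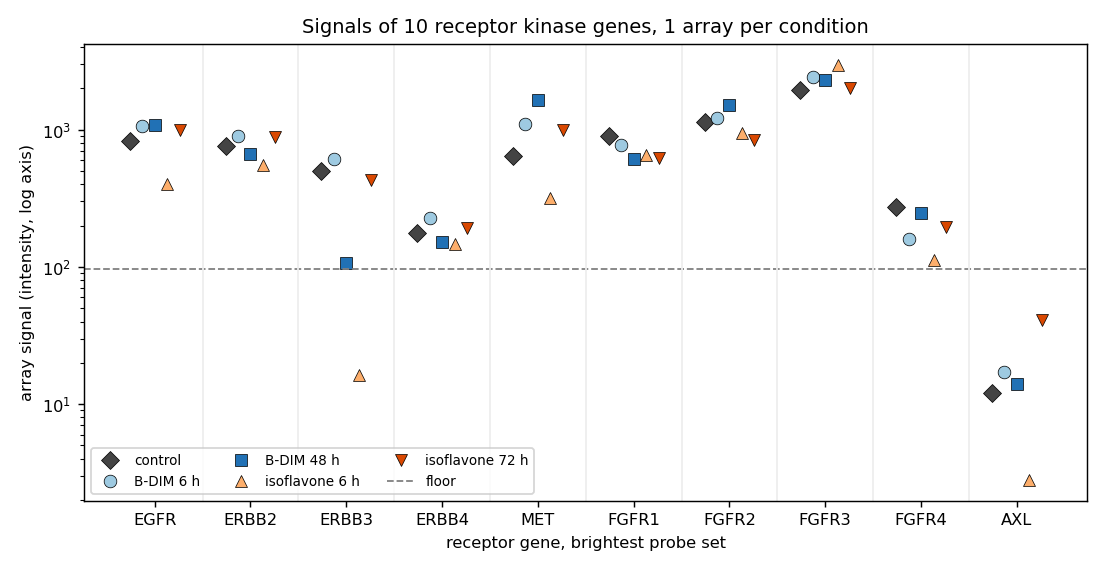
Array signal (linear intensity, log axis) of the brightest probe set of each receptor on the 5 arrays, 1 symbol per array, with the floor of 97.1 as a dashed line. ERBB3 lies near or under the floor on B-DIM 48 h (107.1) and isoflavone 6 h (16.2), MET is highest on B-DIM 48 h and lowest on isoflavone 6 h, and AXL lies under the floor throughout.

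ERBB3 was the receptor with the widest span, and its signal was low on the 2 arrays that stood apart. Its brightest probe set (226213_at, gene at chr12:56080108-56103505 on GRCh38.p14) read 498.8 on the control array, 608.7 on B-DIM 6 h, 107.1 on B-DIM 48 h, 16.2 on isoflavone 6 h and 433.0 at 72 h. The control, B-DIM 6 h and isoflavone 72 h arrays were high and close together, and the other 2 were near or under the floor. The log2 ratio to control was 0.29, -2.22, -2.36 and -0.20 for the B-DIM arrays at 6 h and 48 h and the isoflavone arrays at 6 h and 72 h, and the third of these is a bound. A further probe set of ERBB3 (202454_s_at) read 203.4, 253.9, 86.9, 40.4 and 198.2 on the same arrays in the same order. It had the same order of high and low arrays, and its ratio was -1.07 at both low arrays, a bound set by the floor. The third probe set with any signal (1563253_s_at) stayed between 78.0 and 113.6, near the floor, and could not show a change, and the remaining 2 were under the floor on all arrays. CDH1, the adhesion protein of epithelial cells, read 2194.9, 2113.5, 99.5, 85.9 and 3736.4 on the same arrays and thus was low where ERBB3 was low.

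EGFR was close to or above the control on 3 treated arrays and lower on isoflavone 6 h. The brightest probe set (201983_s_at, gene at chr7:55019017-55211628) read 831.4 on the control, 1067.1 on B-DIM 6 h, 1080.4 on B-DIM 48 h, 399.6 on isoflavone 6 h and 1003.4 at 72 h, with log2 ratios of 0.36, 0.38, -1.06 and 0.27. The isoflavone 6 h array was the low one and the other 4 lay near each other. The probe set 224999_at read 693.2, 741.3, 524.4, 294.6 and 690.4, with a ratio of -1.23 on isoflavone 6 h, and 201984_s_at read 428.3, 545.0, 788.7, 208.2 and 588.7, with a ratio of -1.04 there. All 4 measured EGFR probe sets passed 2-fold on the low side on isoflavone 6 h, from -1.23 to -1.02, the last of them a bound. On B-DIM 48 h they did not share a direction, since 201984_s_at had 0.88, 224999_at had -0.40 and the dim 1565484_x_at had a bound of -1.02. The remaining 5 EGFR probe sets were above the floor on at most 1 array.

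ERBB2 and ERBB4 stayed under 2-fold against the control on every array. ERBB2 (216836_s_at, chr17:39688094-39728658) read 756.0 on the control, 897.3 on B-DIM 6 h, 662.4 on B-DIM 48 h, 551.0 on isoflavone 6 h and 882.0 at 72 h, with log2 ratios of 0.25, -0.19, -0.46 and 0.22. The B-DIM 48 h and isoflavone 6 h arrays were again the lowest, by a margin much smaller than for ERBB3. ERBB4 (233498_at, chr2:211375717-212538802) read 178.2, 228.1, 152.4, 146.0 and 192.0 in the same order of arrays, with ratios of 0.36, -0.23, -0.29 and 0.11. A second ERBB4 probe set (214053_at) read 172.5, 228.1, 186.1, 86.6 and 189.5, with a bound of -0.83 on isoflavone 6 h. The remaining 2 probe sets of ERBB2 and 2 of ERBB4 were above the floor on at most 1 array.

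**Figure D2:**
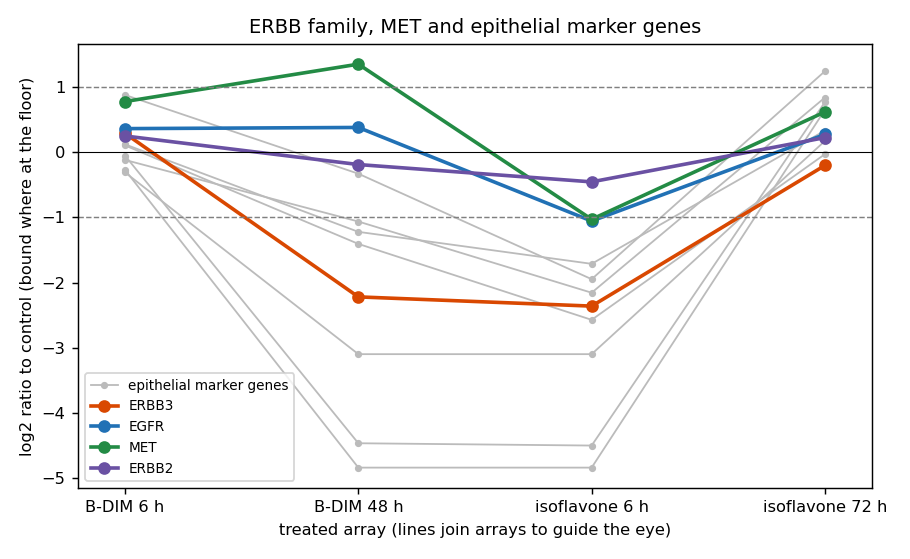
The log2 ratio to control of ERBB3, EGFR, ERBB2 and MET (coloured) and of the epithelial marker genes (grey) on the 4 treated arrays, with dashed lines at 2-fold; values that meet the floor are bounds. ERBB3 is low on B-DIM 48 h (-2.22) and isoflavone 6 h (-2.36). Of the 7 measured epithelial genes, 6 are at least 2-fold lower on B-DIM 48 h, where ESRP1 has -0.33, and 7 on isoflavone 6 h. MET is higher than control on B-DIM 48 h and lower on isoflavone 6 h.

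MET was the 1 receptor that passed 2-fold against the control in opposite directions, higher on B-DIM 48 h and lower on isoflavone 6 h. Its brightest probe set (203510_at, chr7:116672196-116798377) read 644.7 on the control, 1103.3 on B-DIM 6 h, 1641.5 on B-DIM 48 h, 315.6 on isoflavone 6 h and 988.3 at 72 h. The B-DIM 48 h array was the highest and the isoflavone 6 h array the only one under the control. The log2 ratios were 0.78, 1.35, -1.03 and 0.62. The probe set 213807_x_at read 317.2, 392.3, 664.4, 157.9 and 203.8, with ratios of 0.31, 1.07, -1.01 and -0.64, and 211599_x_at read 646.6, 747.9, 1014.6, 274.4 and 353.0, with ratios of 0.21, 0.65, -1.24 and -0.87. A dim probe set, 213816_s_at, read 124.6, 163.2, 158.9, 8.0 and 48.3. All 4 probe sets were thus above the control on both B-DIM arrays and below it on isoflavone 6 h. On isoflavone 72 h they split, 1 above the control and 3 below, so that no direction of MET can be given there. Averaged over all probe sets of the gene, the ratio was 0.85 on B-DIM 48 h and -0.91 on isoflavone 6 h, both under 2-fold. HGF, the ligand of MET, was under the floor on all 5 arrays. The windows of sequence printed for MET and EGFR both hold 2 GC boxes, and the data hold no measurement of binding to them.

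FGFR1 and FGFR2 stayed within 2-fold of the control on all arrays. FGFR1 (211535_s_at) read 896.5 on the control, 775.3 on B-DIM 6 h, 615.8 on B-DIM 48 h, 652.8 on isoflavone 6 h and 627.4 at 72 h, with log2 ratios of -0.21, -0.54, -0.46 and -0.51. The control was the highest array for this probe set, but 5 of the 7 FGFR1 probe sets were above the control on B-DIM 6 h, 2 on B-DIM 48 h and 3 on either isoflavone array, so the gene had no common direction. FGFR2 (203638_s_at, chr10:121478330-121598458) read 1146.8, 1214.8, 1507.8, 950.7 and 838.9, with ratios of 0.08, 0.39, -0.27 and -0.45. All 5 measured FGFR2 probe sets were above the control on B-DIM 6 h and below it on isoflavone 6 h, by under 2-fold. On isoflavone 72 h 4 of the 5 were below the control, and 203639_s_at, with signals of 395.5, 424.9, 362.2, 220.2 and 197.9, came closest to the threshold with a ratio of -0.999, just inside 2-fold. The FGFR2 probe set 208229_at went the other way there (138.2, 201.8, 192.5, 116.9 and 161.5, ratio 0.22). The remaining 6 FGFR2 probe sets were above the floor on at most 1 array. FGFR2 is made in forms that differ in the exons joined, and which form each probe set reads was not analysed here.

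**Figure D3:**
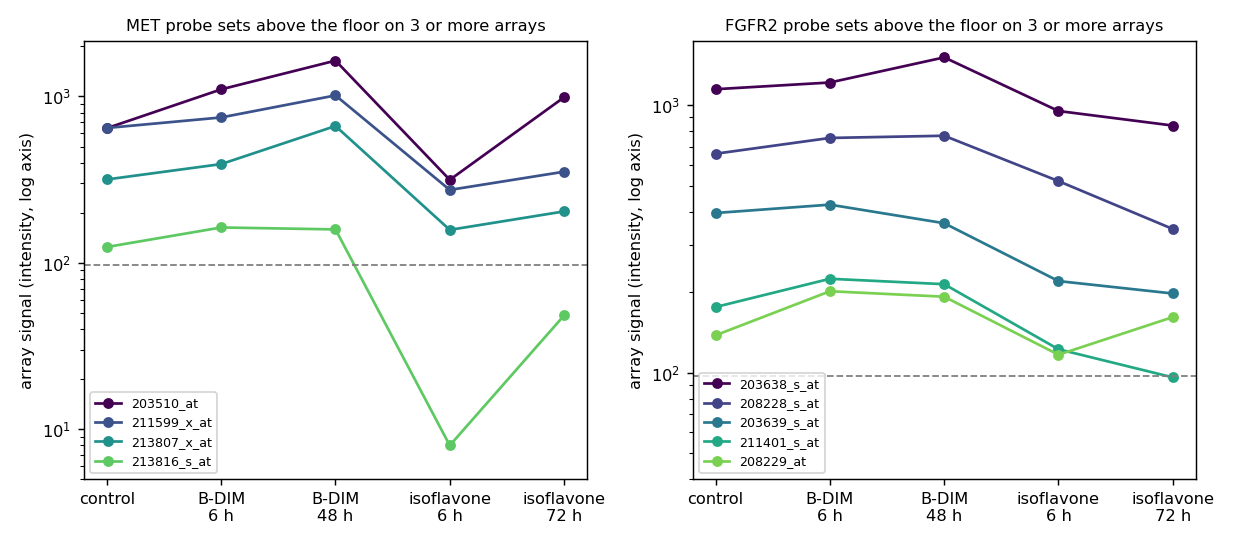
Array signal (linear intensity, log axis) of the MET and FGFR2 probe sets that were above the floor (dashed) on 3 or more arrays, 1 line per probe set; lines join arrays to guide the eye. The MET probe sets have their highest or second highest signal on B-DIM 48 h and a low point on isoflavone 6 h and separate on isoflavone 72 h, where 203510_at reads 988.3 and 211599_x_at reads 353.0.

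FGFR3 was the receptor with its highest signal on isoflavone 6 h. Its brightest probe set (204379_s_at, chr4:1793293-1808867) read 1963.2 on the control, 2419.7 on B-DIM 6 h, 2297.1 on B-DIM 48 h, 2975.5 on isoflavone 6 h and 2026.3 at 72 h, with log2 ratios of 0.30, 0.23, 0.60 and 0.05. The dimmer 204380_s_at read 186.3, 124.2, 165.8, 313.6 and 151.7, with a ratio of 0.75 on isoflavone 6 h. Both probe sets were thus highest on that array, by under 2-fold against the control, and they differed in direction on the other 3 arrays. FGFR4 (204579_at, chr5:177086915-177098144) read 271.3, 161.1, 248.0, 112.1 and 196.6, with ratios of -0.75, -0.13, -1.28 and -0.46. The control was the highest array for FGFR4 and isoflavone 6 h the lowest, and no second FGFR4 probe set was above the floor on the control array. AXL (chr19:41219223-41261766) read 12.1, 17.3, 14.0, 2.8 and 40.9 in 202686_s_at and 20.1, 9.5, 8.3, 9.7 and 6.8 in 202685_s_at, all under the floor, so a change in AXL could not be measured.

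Against the control, 0 of the 9 measured receptors were at least 2-fold higher and 0 lower on B-DIM 6 h, where 2.86% of all 13020 measured genes were higher and 0.806% lower. On B-DIM 48 h 1 receptor was higher (MET) and 1 lower (ERBB3), where 5.33% of genes were higher and 3.87% lower. On isoflavone 6 h 0 were higher and 4 were lower (EGFR, ERBB3, MET and FGFR4), where 1.18% of genes were higher and 3.82% lower. On isoflavone 72 h 0 were higher and 0 lower, where 4.8% of genes were higher and 2.06% lower. All 6 calls came from the B-DIM 48 h and isoflavone 6 h arrays, and 0 were left without these arrays. Of the 4 lower receptors on isoflavone 6 h, 3 lay between -1.03 and -1.28 and so just past 2-fold. With quantile normalization of the arrays EGFR had -0.99 and MET -0.95 there, and 2 receptors, ERBB3 and FGFR4, stayed past 2-fold. The FGFR4 call rests on 1 probe set that read 112.1 there, near the floor of 97.1, and 271.3 on the control. The members' median log2 ratio was 0.29, -0.13, -0.46 and 0.05 on the 4 arrays in this order, where the median of all genes was 0.07, 0.06, 0.00 and 0.05.

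By probe set, B-DIM 6 h had 0 higher and 0 lower of 32 measured (2.56% higher and 1.38% lower among all probe sets), and B-DIM 48 h had 2 higher and 3 lower of 34 (4.82% and 4.41%). Isoflavone 6 h had 0 higher and 10 lower of 29 (1.18% and 3.52%), and isoflavone 72 h had 0 and 0 of 31 (4.21% and 3.19%). The 10 lower probe sets were 4 of EGFR, 3 of MET, 2 of ERBB3 and 1 of FGFR4, and probe sets of 1 gene are not separate measurements of it.

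**Figure D4:**
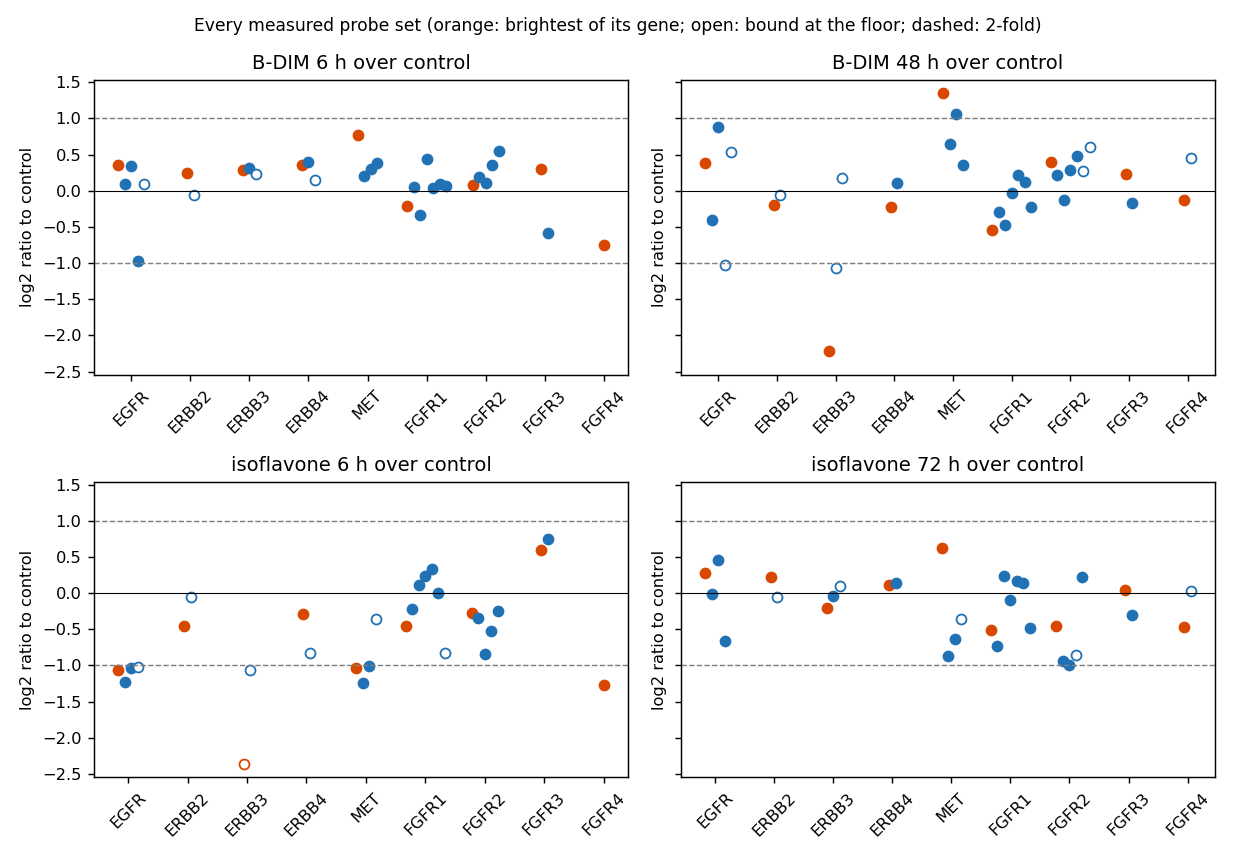
The log2 ratio to control of every measured probe set of the 9 receptors with signal, 1 panel per treated array; orange marks the brightest probe set of a gene, open circles are bounds at the floor and dashed lines mark 2-fold. Points past the dashed lines appear on B-DIM 48 h (2 above, 3 below) and isoflavone 6 h (10 below) and on neither of the other arrays.

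The 4 comparisons above share 1 control array, and 3 comparisons leave it out. B-DIM and isoflavone were given at the same stated dose and time at 6 h only. There B-DIM over isoflavone gave log2 ratios of 1.42 for EGFR, 1.81 for MET and 2.65, a bound, for ERBB3. These were the 3 receptors of 9 that were at least 2-fold higher in their brightest probe set. Averaged over all its probe sets, EGFR had 0.86, under 2-fold. ERBB4 had 0.64 in its brightest probe set and 1.23, a bound, in 214053_at. No receptor was 2-fold lower in its brightest probe set. FGFR3 had -0.30 in 204379_s_at and -1.34 in the dimmer 204380_s_at, and 7.01% of all genes were higher and 1.12% lower. The members' median was 0.64 and that of all genes 0.06. This comparison rests on the isoflavone 6 h array, and without a replicate its size has no error.

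Between the isoflavone times, 72 h over 6 h, the same 3 receptors were at least 2-fold higher, with log2 ratios of 1.33 for EGFR, 1.65 for MET and 2.16, a bound, for ERBB3. The MET value depends on the probe set, since 211599_x_at and 213807_x_at had 0.36 and 0.37, and the average over all MET probe sets was 0.79. No receptor was 2-fold lower in its brightest probe set, where FGFR3 had -0.55, but 204380_s_at of FGFR3 had -1.05, and 7.77% of all genes were higher and 1.89% lower. The members' median was 0.68 against 0.04 for all genes. Between the B-DIM times, 48 h over 6 h, ERBB3 alone was changed at -2.51, MET had 0.57 and EGFR 0.02, with 1 receptor lower, 0 higher, and 3.74% of genes lower and 1.83% higher. The B-DIM 48 h and isoflavone 72 h arrays differ in time as well as compound and were not compared.

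Genes with the pattern nearest to each changed receptor were sought by the mean absolute difference of log2 ratio over the 4 treated arrays, among 9321 genes (9322 for FGFR4) with a signal of at least 388.4 on some array. ERBB3 was nearest to HSPB1 (0.134), a small heat shock protein, NMRAL1 (0.141) and AZGP1 (0.158), a glycoprotein that the prostate secretes. EGFR was nearest to TRIM9 (0.0345), PODXL (0.0645) and SLC16A14 (0.0646). MET was nearest to MATCAP2 (0.0796), CHRM3 (0.102), a muscarinic acetylcholine receptor, and SGPP2 (0.147). FGFR4 was nearest to LYN (0.122), a SRC family kinase, UNK (0.129) and SPC25 (0.137). ERBB3 was under the floor on 1 of the arrays and AZGP1 on 2, so the distances from ERBB3 rest in part on values set by the floor. These distances are a description over 4 ratios that share 1 control.

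Ligands of the receptors were mostly dim. Of 9 ERBB ligand genes with a probe set, 2 were above the floor on all arrays and 4 on none. On either B-DIM array 0 of the 4 measured were changed. Among all genes 2.86% were higher and 0.806% lower on B-DIM 6 h, and 5.33% and 3.87% on B-DIM 48 h. NRG1, a neuregulin that binds ERBB3 and ERBB4, was the 1 of 3 measured that was lower on isoflavone 6 h. It was also the 1 of 5 that was lower on isoflavone 72 h, and it was named after its values were seen. Among all genes 3.82% and 2.06% were lower on these arrays. NRG1 read 327.0 on the control, 591.8 on B-DIM 6 h, 180.1 on B-DIM 48 h, 75.2 on isoflavone 6 h and 151.3 at 72 h, with log2 ratios of 0.86, -0.86, -1.75, a bound, and -1.11. Only the B-DIM 6 h array was above the control. Of 18 FGFR ligand genes, 9 were under the floor on all arrays. FGF2 was the 1 that changed, as 1 of 6 measured on B-DIM 48 h, where 5.33% of all genes were higher. It read 224.5, 278.0, 476.8, 233.6 and 214.4, with a ratio of 1.09 on that array. GAS6, the ligand of AXL, read 624.1, 835.2, 740.9, 768.0 and 859.2, under 2-fold on all arrays.

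The genes of ligand processing include proteases and the protease inhibitors SPINT1 and SPINT2. Of 6 measured, 1 was lower on B-DIM 6 h, 2 on B-DIM 48 h and 3 on isoflavone 6 h, against 0 at 72 h. Among all genes 0.806%, 3.87%, 3.82% and 2.06% were lower on these arrays, and 0 of the 6 were higher on any. The protease gene ST14 was lower on B-DIM 6 h, B-DIM 48 h and isoflavone 6 h, with a bound of -1.24 on each. SPINT2 was lower on the last 2 of these, and SPINT1 on isoflavone 6 h (-1.93, a bound). The counts thus mix proteases with their inhibitors. SPINT2, an inhibitor of the proteases that activate HGF, read 830.3 on the control, 946.8 on B-DIM 6 h, 39.5 on B-DIM 48 h, 119.6 on isoflavone 6 h and 1012.5 at 72 h, with ratios of -3.10, a bound, and -2.80 on the 2 low arrays. SPINT2 was low on the same arrays as ERBB3 and CDH1. Among co-receptors and decoys 2 of 7 were higher on B-DIM 48 h, 1 of 7 lower on isoflavone 6 h, and 1 higher and 1 lower of 8 on isoflavone 72 h, beside shares of all genes of 5.33% higher, 3.82% lower, and 4.8% higher and 2.06% lower. SDC1, a heparan sulfate carrier that assists FGF binding, read 889.5, 659.5, 1174.1, 134.9 and 572.8, low on isoflavone 6 h alone (-2.72). FGFRL1, an FGF receptor without a kinase, read 263.0, 464.2, 579.7, 366.8 and 292.0, with 1.14 on B-DIM 48 h. CD44, a MET co-receptor, read 182.9, 106.5, 434.0, 136.2 and 281.9, with 1.25 on B-DIM 48 h. FGFRL1 and CD44 were thus higher on the array where MET was highest. NRP1, a neuropilin that assists several growth factor receptors, read 625.6, 720.2, 845.7, 451.1 and 192.1, with -1.70 on isoflavone 72 h.

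All 14 adaptor and effector genes with a probe set were above the floor on all arrays, and 1 changed, GAB2, a docking protein of several receptors. GAB2 read 222.7 on the control, 229.5 on B-DIM 6 h, 601.0 on B-DIM 48 h, 208.6 on isoflavone 6 h and 464.5 at 72 h, high on the later array of each compound (1.43 and 1.06), where 5.33% and 4.8% of all genes were higher. Of 13 measured genes that restrain the receptors, 1 changed, SPRY1, an inhibitor of FGF and ERK signals. SPRY1 read 274.7, 384.3, 595.4, 383.3 and 413.3, with a ratio of 1.12 on B-DIM 48 h, where 5.33% of all genes were higher. Of the genes that FGF and ERK signals are known to induce, 1 of 9 was lower on B-DIM 48 h, 1 of 7 higher on isoflavone 6 h, and 1 higher and 1 lower of 6 on isoflavone 72 h, beside shares of all genes of 3.87% lower, 1.18% higher, and 4.8% higher and 2.06% lower. EGR1, an immediate early transcription factor, read 396.4, 555.4, 509.6, 1189.7 and 1597.4, with ratios of 1.59 and 2.01 on the isoflavone arrays. DUSP4, a phosphatase of ERK, read 1999.2, 1445.2, 968.4, 2029.3 and 614.2, with ratios of -1.05 on B-DIM 48 h and -1.70 on isoflavone 72 h. The 2 response genes thus differed in direction on isoflavone 72 h.

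Among the other receptor tyrosine kinases, 1 of 31 measured was higher on B-DIM 6 h, 6 of 30 were higher on B-DIM 48 h, 4 of 29 were lower on isoflavone 6 h and 1 of 32 was lower on isoflavone 72 h. The shares of all genes in the same directions were 2.86%, 5.33%, 3.82% and 2.06%. The relatives of AXL were measured where AXL was not. TYRO3 read 797.4 on the control, 591.9 on B-DIM 6 h, 746.6 on B-DIM 48 h, 197.3 on isoflavone 6 h and 553.2 at 72 h, with a log2 ratio of -2.01 on isoflavone 6 h. MERTK read 460.3, 634.5, 666.9, 158.3 and 544.6, with -1.54 on the same array. Both were thus low on isoflavone 6 h and not on B-DIM 48 h, as EGFR was. KIT, the stem cell factor receptor, read 493.2, 836.7, 1349.7, 391.4 and 477.9, with 1.45 on B-DIM 48 h, and DDR2, a collagen receptor, read 230.1, 353.0, 549.6, 261.7 and 361.9, with 1.26 there. The list's median ratio was 0.13, 0.21, -0.22 and 0.05 on the 4 treated arrays, beside the medians of all genes given above.

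**Figure D5:**
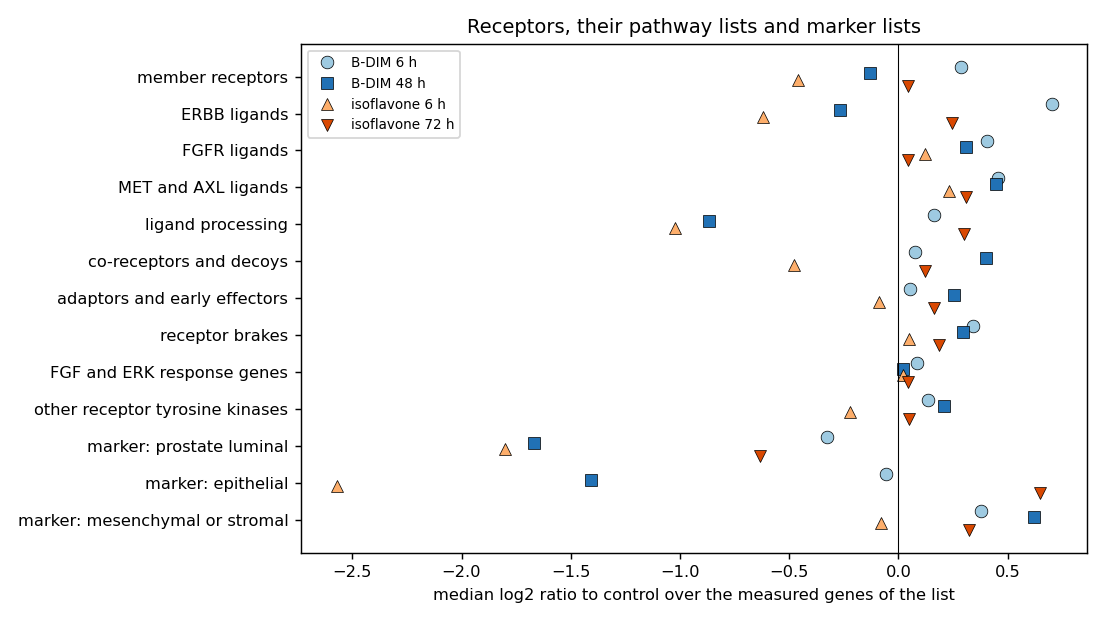
The median log2 ratio to control over the measured genes of each list on the 4 treated arrays (1 symbol per array), for the receptors, the pathway lists and 3 marker lists. The luminal and epithelial lists lie far to the low side on B-DIM 48 h and isoflavone 6 h, and the receptors' medians lie between -0.46 and 0.29.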

How the data were processed

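RNA of the C4-2B cell line was hybridised to 5 arrays, 1 per condition. The deposited values are intensity values made by the authors as 1 linear signal per probe set, which the submitters' processing notes credit to MAS5; its version, the scaling target and detection calls are not given in the sources used here. No scanner values were used, so background and normalization stand as the authors set them. Of 54613 probe sets, 41091 carry 1 symbol in the platform's gene table, 1801 carry several and 11721 are not in it; the latter groups were left out. Promoter windows came from RefSeq (GRCh38.p14), and no reference genome or protein sequence was used.

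The brightest probe set, by mean over the 5 arrays, stood for its gene. Signals under 97.1, the median of all signals, were raised to it, and a gene was measured if above it on 1 of the 2 arrays. No test was possible with 1 array per condition, and the number of arrays limits the precision. All members and their probe sets were named. From each pathway list up to 4 genes were named, those changed 2-fold with a signal of at least 388.4 on 1 of the 2 arrays, and CDH1 and KLK3 were named as markers. Outside this rule, HGF and GAS6 were named as the receptors' ligands, and NRG1, ST14, SPINT1 and VIM after their values were seen. The members, lists and comparisons were chosen with earlier results of these data known. Alternatives changed the scaling, the floor, the probe sets and the fold. The script was tested on simulated data. Python 3.11.15, numpy 2.4.6, pandas 2.3.3 and matplotlib 3.10.9 were used.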

Additional observations from a re-analysis of the deposited data

Results flagged for a closer look

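MET had a log2 ratio to control of 1.35 on B-DIM 48 h and of -1.03 on isoflavone 6 h, so that it was more than 2-fold higher on 1 treated array and more than 2-fold lower on the other. Averaged over all MET probe sets the ratios were 0.85 and -0.91, and with quantile normalization the isoflavone 6 h ratio was -0.95, all under 2-fold. The difference between the effects was not tested, since each rests on 1 array, and the arrays differ in both compound and time.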

How the results depend on the processing

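No receptor ratio past 2-fold changed direction under any alternative. Of 475 recomputed ratios of single receptors, 460 kept their side of 2-fold and 15 fell back under it. Most of the 475 could not fall back. Only the 6 calls against the control and the 1, 3 and 3 calls of the comparisons without it began past 2-fold. Smaller ratios could change sign with the probe sets used. EGFR on B-DIM 48 h went from 0.38 to -0.40 without _s_at and _x_at probe sets. MET on isoflavone 72 h went from 0.62 to -0.31 with all probe sets averaged. The count of lower receptors on isoflavone 6 h, 4 as reported, was 3 when all probe sets of a gene were averaged (without MET, at -0.91) and 2 with quantile normalization (ERBB3 and FGFR4). It was 1 with the floor added as a pseudocount and 1 with a 3-fold rule (both ERBB3). With a higher floor of 471.7, the 75th percentile, it was 0, and this was fixed in advance for these 4 receptors. Their control signals of 831.4 (EGFR), 498.8 (ERBB3), 644.7 (MET) and 271.3 (FGFR4) were all less than 2-fold above that floor. The higher floor gave 6 of the 15 ratios that fell back. The quantile ratios that were lost lay just under 2-fold, with -0.99 for EGFR and -0.95 for MET. On B-DIM 48 h the count of higher receptors went from 1 to 0 when all probe sets of a gene were averaged, with MET at 0.85, and to 0 with a 3-fold rule. The count of lower ones there went from 1 to 0 with the higher floor, which ERBB3 could not pass for the same reason. With a 1.5-fold rule 1 receptor was higher (MET) and 1 lower (FGFR4) on B-DIM 6 h, 1 was higher on isoflavone 6 h (FGFR3) and 1 was higher on isoflavone 72 h (MET). A further floor, from olfactory receptor probe sets, lay at 74.5. Without probe sets whose names end in _s_at or _x_at, which can be shared by related transcripts, ERBB2 and FGFR3 had no value. Of the medians of the 3 comparisons without the control, that of B-DIM 48 h over 6 h went from -0.075 to 0.073 when all probe sets were averaged, and no other changed sign. No array could be left out of its own condition, since each holds 1. No paired analysis was possible because each condition holds 1 array, so no pairs of replicates exist. Where the signal lies near the floor, as for ERBB3 on 2 arrays, FGFR4 on isoflavone 6 h, AXL, and most ligands, the arrays limit how large a difference can be shown.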
